A study of Mus musculus with 10 samples.

Results

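State T2 is 1 of 9 T cell states that the submitters defined by clustering single-cell transcriptomes of mouse lung tumours, and its members are the cells with cluster number 2 in their table of T cells. It held 373 cells, among 6570 T cells and 44986 cells in all. The other CD8 states, which serve as its comparison, are T1 (481 cells), T3 (1539 cells), T5 (330 cells) and T9 (369 cells), 2719 cells together. The tumours came from KP cells, a mouse lung cancer cell model, which were given intravenously to syngeneic hosts and formed tumours in the lung. The sources used here give no strain, sex or age of the mice and no drug doses. Tumour-bearing mice were treated for 11 days with SHP099+SX682, with SHP099 alone, with SX682 alone or with Vehicle. There were 3 mice per treatment. SHP099 inhibits the phosphatase SHP2, encoded by Ptpn11, and SX682 inhibits CXCR1 and CXCR2, receptors of neutrophil-attracting chemokines. Tumour nodules were dissociated, live cells were enriched with magnetic beads, the mice of each treatment were marked with hashtag oligonucleotides and pooled, and each pool was run as 1 droplet capture with a kit for immune receptor and gene expression libraries. Treatment and capture therefore cannot be told apart in any comparison of treatments, and p-values measure the spread between mice that shared a capture.

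Klrg1, an inhibitory receptor of the lectin family that binds cadherins, marks effector CD8 T cells that have differentiated far and seldom become long-lived memory cells. Such cells carry granules loaded with granzymes and perforin, circulate in blood and use Cx3cr1, the receptor of the chemokine fractalkine, together with S1pr5 to move through vessels. The transcription factors T-bet (Tbx21), Zeb2 and Id2 drive this fate, whereas Tcf7, Lef1 and Ccr7 belong to naive and memory cells that home to lymph nodes.

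The markers Klrg1 and Cx3cr1 were higher in T2 than in each other CD8 state. Levels are unique molecular identifiers (UMIs) of a gene per 1000000 UMIs of the pooled cells (CPM). Klrg1 was at 203 CPM in T2, against 1.03 in T1, 4.41 in T3, 38.6 in T5 and 10.9 in T9. Cx3cr1 was at 207 CPM in T2, against 1.03, 7.25, 28.2 and 49.4 CPM in T1, T3, T5 and T9. Pooled T2 values lean to SHP099+SX682, whose mouse 1 alone gave 146 of the 373 cells. On SHP099+SX682, SHP099, SX682 and Vehicle, Klrg1 in pooled T2 cells was at 257, 162, 126 and 79.1 CPM. Cx3cr1 was at 251, 189, 126 and 111 CPM in the same order. Cd8a, the CD8 alpha chain, was at 565 CPM in T2, within the span of 265 to 856 CPM in the other states. Of the 373 cells, 173 (46.4%) had a Cd8a UMI, 257 (68.9%) a Cd8b1 UMI and 266 (71.3%) a Cd3e UMI, but 15 (4.02%) a Cd4 UMI. After thinning every cell to 500 UMIs, 9.65% of T2 cells had a Klrg1 UMI, against 0%, 0.390%, 1.82% and 0.542% in T1, T3, T5 and T9 and 0.065% in B cells, which should lack it. The unthinned shares were 20.6% in T2 (median 1200 UMIs per cell), 10% in T5 (4499.5 UMIs) and 0.282% in B cells (1010 UMIs). Ptpn11, the gene of the SHP099 target, was seen in 26 T2 cells, Cxcr2 in 1 and Cxcr1 in 0 of 373, which allows a share of cells with a Cxcr1 UMI of up to 0.804%, counting error only.

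In the submitters' clustering of all cells, 304 T2 cells (81.5%) lay in cluster 8, 46 (12.3%) in cluster 3 and 11 in cluster 6, the cluster with the most Ncr1, a receptor that defines natural killer (NK) cells. NK cells share much of the program of T2, and Klrg1 was at 203 CPM in T2 and 189 CPM in cluster 6. Ncr1 was at 7.82 CPM in T2, 1.01% of its 775 CPM in cluster 6, and 3 of 373 T2 cells had an Ncr1 UMI. The 7 NK markers summed to 194 CPM in T2, 1.34% of their highest level in any cluster, which was in cluster 32 and not cluster 6. The 7 B cell markers summed to 199 CPM, 1.19% of their highest level, in cluster 4 and not cluster 1, where Cd79a was highest. These percentages do not measure the share of NK or B cells in T2. By mouse, the NK sum ran from 106 to 393 CPM on SHP099+SX682 and 90.7 to 689 CPM on SHP099. It ran from 0 to 836 CPM on SX682 and 0 to 169 CPM on Vehicle. Of 8 dendritic cell markers 5 (Flt3, Xcr1, Clec9a, Cd209a and Ccl22) were at 0 in T2. Mice contributed 146, 44 and 42 T2 cells on SHP099+SX682, 28, 12 and 17 on SHP099, 10, 17 and 16 on SX682, and 16, 19 and 6 on Vehicle. Their summed T2 counts ran from 9372 to 188634 UMIs, with 12.3 to 15.7% of UMIs in the 10 most abundant genes. Mean mitochondrial shares of T2 UMIs were 2.83%, 2.26%, 2.75% and 2.02% in these 4 groups. Mice on SX682 had the highest median depth, 1621 ± 215 UMIs per T2 cell, against 1209 ± 183 on Vehicle (SD, n = 3 each). No barcode was shared by mice of a pool, while 1009 of 43973 barcodes occurred in more than 1 pool, and 14 T2 cells carried such a barcode.

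T2 was set against the other CD8 states within each mouse, as a description with no test, because the states were made by clustering the same genes. The measure was the log2 ratio of CPM + 10 in T2 to CPM + 10 in the other states, each state weighted equally, in the 11 mice with at least 10 T2 cells; Vehicle mouse 3, with 6, was left out. Of 2775 genes measured at 50 CPM or more on the higher side, 19 (0.685%) had a median ratio of at least 2-fold and were higher in T2 in every mouse, and 35 (1.26%) were lower by the same rule. The median ratio over all 2775 genes was 0.013.

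Genes of the cytotoxic granule and its chemokine partner led the higher side. Gzma, a granule serine protease, had the largest median log2 ratio, 3.09, and ranged from 0.92 to 4.70 over the mice. Its T2 level was 2916, 536 and 3637 CPM on SHP099+SX682, 6135, 2506 and 1839.6 CPM on SHP099, 5821, 1389 and 1056 CPM on SX682 and 864, 1793 and 0 CPM on Vehicle. Every mouse with at least 10 T2 cells thus had Gzma in T2, but levels differed widely within each treatment, and every pair of treatments overlapped except SHP099 and Vehicle with its 2 mice of at least 10 T2 cells. Of the genes tested within T2 below, 33.9% did not overlap between these 2 groups. After thinning, 31.1% of T2 cells held a Gzma UMI, against 0.737% of B cells. In pooled cells Gzma was at 2596 CPM in T2 and 15154 CPM in cluster 6. Ccl5, a chemokine that effector T cells store and release, was the most abundant of these genes, with a median ratio of 2.77 and a range of 2.27 to 3.40. T2 levels of Ccl5 were 40088, 27503 and 49097 CPM on SHP099+SX682, 57419, 23056 and 42312 on SHP099, 46733, 35939 and 27358 on SX682 and 38156, 31364 and 18566 on Vehicle. The cells of the other CD8 states pooled gave 4779 to 8985 CPM of Ccl5 per mouse, so no mouse's other states reached the lowest T2 value. Gzmk, another granzyme, had a median ratio of 2.31, and Nkg7, a granule membrane protein, one of 1.30.

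**Figure D1:**
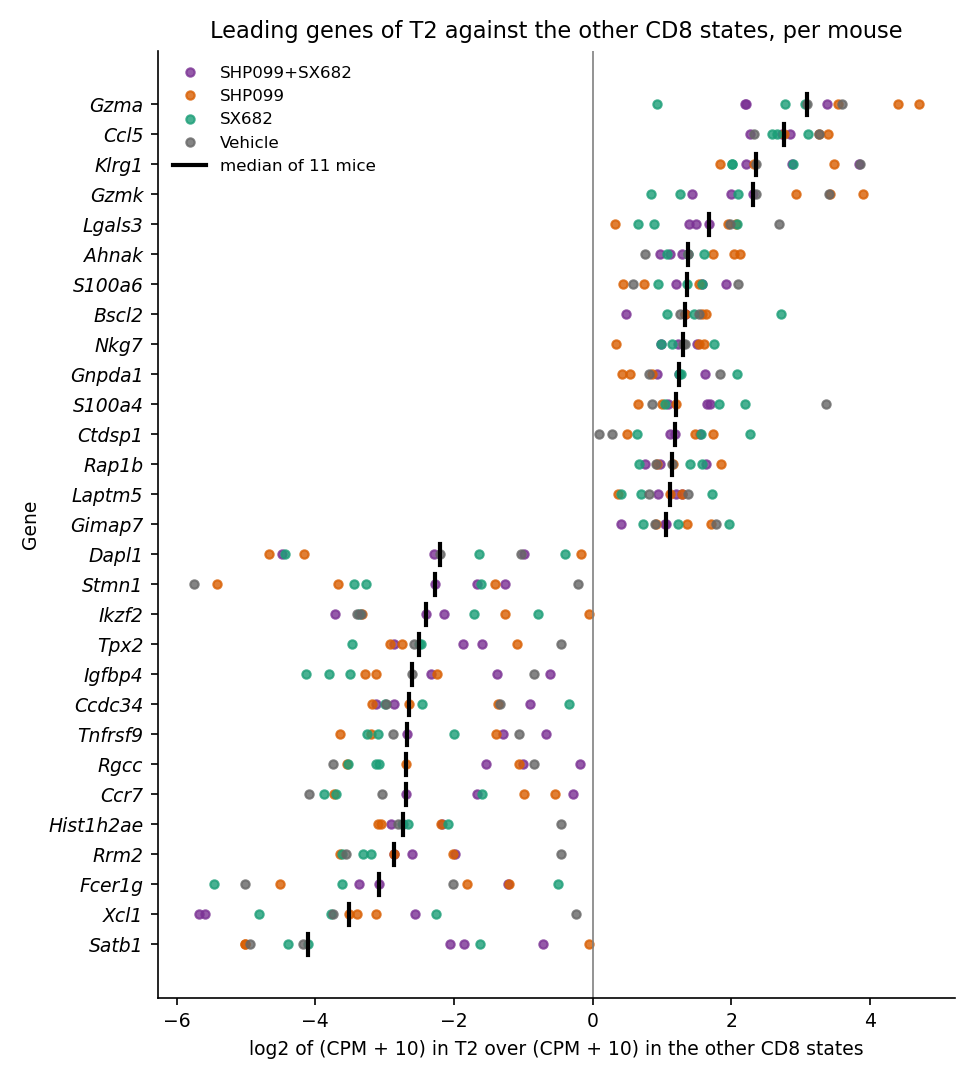
The plot of leading genes shows, for each named gene (vertical axis), the log2 ratio of CPM + 10 in T2 to the other CD8 states (horizontal axis), 1 dot per mouse for 11 mice and a bar at the median. Gzma, Ccl5 and Klrg1 lie farthest to the right and Satb1, Xcl1 and Fcer1g farthest to the left, with every dot of a gene on 1 side of 0.

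Sequences around the start sites of 3 granule genes are shown because these genes are among those called higher in T2; each runs from 250 bases before to 50 bases after the start of a RefSeq transcript (GRCm38.p6). Capitals mark a T-box core (GGTGTG or its reverse complement CACACC), the kind of site T-box factors such as T-bet bind, or an E-box core (CAGGTG or CACCTG), which Zeb-family factors bind; both strands were searched and the motifs share no letters. Gzma lies at chr13:113100932-113101231 on the minus strand, Gzmk at chr13:113180916-113181215 on the minus strand and Nkg7 at chr7:43436888-43437187 on the plus strand.
Gzma: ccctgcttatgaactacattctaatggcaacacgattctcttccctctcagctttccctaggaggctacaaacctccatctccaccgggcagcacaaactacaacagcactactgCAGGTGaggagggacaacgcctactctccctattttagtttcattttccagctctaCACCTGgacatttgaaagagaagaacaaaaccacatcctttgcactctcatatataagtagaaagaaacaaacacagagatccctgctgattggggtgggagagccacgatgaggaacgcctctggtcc
Gzmk: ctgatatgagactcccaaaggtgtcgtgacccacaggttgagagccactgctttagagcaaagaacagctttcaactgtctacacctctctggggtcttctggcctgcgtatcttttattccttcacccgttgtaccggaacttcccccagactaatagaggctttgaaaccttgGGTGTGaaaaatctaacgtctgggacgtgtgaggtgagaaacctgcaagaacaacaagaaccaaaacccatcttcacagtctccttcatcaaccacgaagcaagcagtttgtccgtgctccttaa
Nkg7: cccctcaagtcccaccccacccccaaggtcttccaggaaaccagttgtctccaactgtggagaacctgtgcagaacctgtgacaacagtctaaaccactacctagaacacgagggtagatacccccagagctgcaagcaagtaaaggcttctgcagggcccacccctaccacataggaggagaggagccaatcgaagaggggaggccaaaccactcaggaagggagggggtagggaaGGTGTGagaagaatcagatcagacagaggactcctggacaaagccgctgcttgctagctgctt
Gzma held 2 E-box cores, Gzmk 1 T-box core and Nkg7 1 T-box core. Of the 15 leading higher genes, 12 were in the promoter table with 14 promoters, of which 5 (35.7%) held a T-box core and 3 (21.4%) an E-box core. Of the 15 leading lower genes, 9 were there, also with 14 promoters, of which 4 (28.6%) held a T-box core and 3 (21.4%) an E-box core. Among all 32851 promoters of this length the shares were 19.0% and 20.2%. A match describes the letters in this window and is not a measured binding site. Klrg1 and Ccl5 are named only.

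Among 14 genes of terminal effector cells, 4 were called higher in T2 (Klrg1, Ahnak, S100a4 and S100a6) and none lower, with a list median log2 ratio of 1.21. Of the 13 measured cytotoxic genes, 4 were called higher (Gzma, Gzmk, Ccl5 and Nkg7) and none lower, with a median of 1.04. Over all 2775 genes measured, 0.685% were called higher. The lists were chosen with earlier results of these data known, and Klrg1 is a marker of the state. The counts are therefore a description and no independent evidence of identity. Klrg1 (chromosome 6, 122270596 to 122282882 on GRCm38, 5 exons) had a median ratio of 2.36, and its T2 level was 318, 89.3 and 223 CPM on SHP099+SX682, 272, 125 and 40.0 CPM on SHP099, 218, 132 and 44.0 CPM on SX682 and 41.2, 135 and 0 CPM on Vehicle. Ahnak, a large scaffold protein under the membrane, had a ratio of 1.37. S100a6 and S100a4, calcium-binding proteins, had ratios of 1.37 and 1.20, and Lgals3, galectin-3, one of 1.67. In pooled cells, S100a6 was at 3218 CPM in T2 and 2277 CPM in the cycling state T5, and Lgals3 at 350 CPM in T2 and 268 CPM in T5. Others on the higher side were Rap1b, a small GTPase of integrin activation (1.15), Laptm5, a lysosomal membrane protein (1.12), Gimap7, an immunity-associated GTPase (1.06), Bscl2, which encodes the lipid droplet protein seipin (1.34), Gnpda1, a hexosamine enzyme (1.24) and Ctdsp1, a phosphatase (1.19).

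Several effector genes had large medians without being higher in every mouse. Cx3cr1 had a median log2 ratio of 2.74 and was higher in 10 of 11 mice. Its T2 levels were 265, 179 and 274 CPM on SHP099+SX682, 363, 0 and 80.0 CPM on SHP099, 218, 99.2 and 88.0 CPM on SX682 and 82.3, 135 and 107 CPM on Vehicle, so a single mouse, SHP099 mouse 2 with 12 T2 cells, lacked it. S1pr5, the sphingosine phosphate receptor by which effector cells leave tissues, had a ratio of 2.96 and was higher in 10 of 11. Zeb2 had a ratio of 1.98 (10 of 11), Gzmb, the other main granzyme, 2.19 (9 of 11), and Klrc1, the inhibitory receptor NKG2A, 2.20 (9 of 11). Perforin (Prf1) had 0.93 (8 of 11), T-bet (Tbx21) 0.80 (9 of 11) and interferon gamma (Ifng) 0.88 (6 of 11). S1pr5 was at 78.2 CPM in T2 and at 0 to 5.67 CPM in T1, T3, T5 and T9, while T-bet was at 74.3 CPM in T2 and at 50.7, 38.6 and 50.4 CPM in T3, T5 and T9.

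Receptors that guide effector cells to inflamed tissue had a median log2 ratio of 0.85 across the 11 that were measured, and none was called. Ccr2, a receptor of monocyte-attracting chemokines, had a median log2 ratio of 1.60 (9 of 11 mice) and Cxcr3, a receptor of interferon-induced chemokines, one of 0.67 (10 of 11). The integrin chains Itga4 (alpha 4), Itgal (alpha L) and Itgb2 (beta 2) had ratios of 1.11, 1.03 and 0.88, each higher in 10 of 11. Cxcr6 was higher in all 11 mice with a ratio of 0.86, below the 2-fold rule. The 6 CD8 lineage markers had a list median of 0.41, and none was called. With 0.685% of all measured genes called higher and 1.26% lower, 0 calls in these 2 lists is near the share over all genes.

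**Figure D2:**
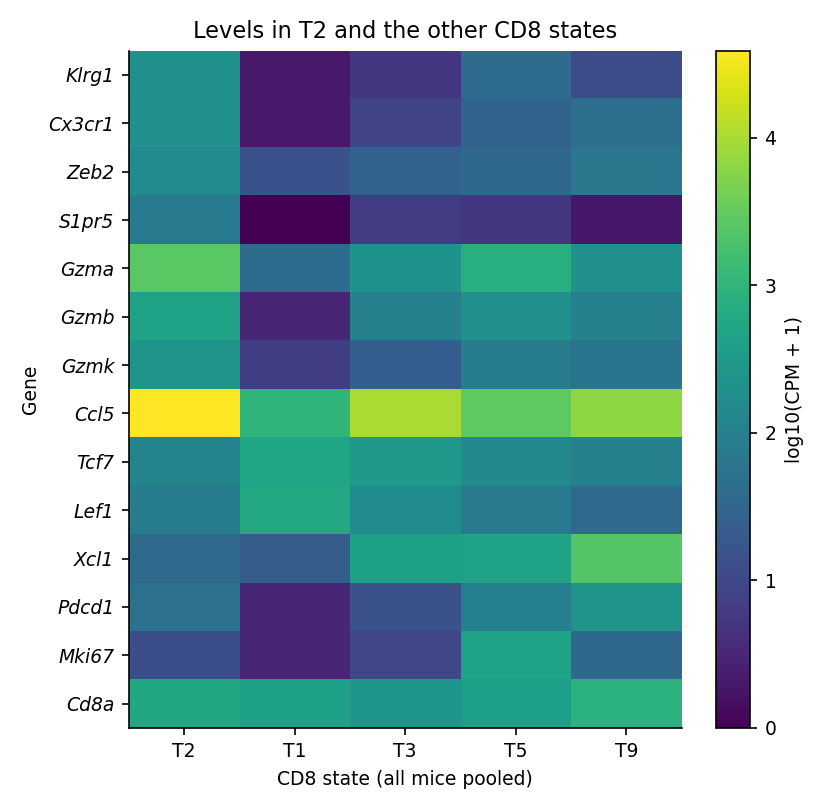
The heat map of levels shows log10(CPM + 1) as colour for selected genes (rows) in T2, T1, T3, T5 and T9 (columns), with the cells of all mice pooled. Klrg1, Cx3cr1, S1pr5, Gzma and Ccl5 are highest in T2, Lef1 is highest in T1 and Xcl1 in T9.

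Naive and memory genes made up much of the lower side. Of 12 measured genes of that list, 6 were called lower (among them Satb1, Ccr7, Dapl1, Lef1 and Bcl2) and none higher, with a median log2 ratio of -1.98. Over all genes measured, 1.26% were called lower, and this list too was chosen with earlier results known. Satb1, a chromatin organiser of T cell development, had the largest fall, -4.11; it was at 80.1 CPM in T2, against 462, 307, 92.3 and 56.4 CPM in T1, T3, T5 and T9. T2 thus had less Satb1 than T1 and T3 but not less than T9. By mouse, Satb1 in T2 was at 148, 71.4 and 68.6 CPM on SHP099+SX682, 0, 251 and 0 CPM on SHP099, 54.4, 0 and 0 CPM on SX682 and 0, 0 and 0 CPM on Vehicle. The 0 values come from T2 sums of at most 33090 UMIs. Ccr7, which guides cells into lymph nodes, had -2.69, Lef1 -1.90 and the survival factor Bcl2 -1.50. Tcf7, the factor that keeps memory cells, was lower in all 11 mice at -0.71, less than 2-fold, and Il7r, the interleukin 7 receptor, was lower in 10 of 11 at -2.05.

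Cell cycle genes were also on the lower side, with a median of -2.27 over 13 measured genes. Of these, 3 were called lower (Rrm2, Stmn1 and Tubb5), against 1.26% of all 2775 genes measured. These genes were concentrated in T5: Rrm2, a subunit of the enzyme that makes deoxyribonucleotides, was at 3.91 CPM in T2, 282 CPM in T5 and 1.03 to 5.93 CPM in T1, T3 and T9. Stmn1, a microtubule regulator, was at 93.8 CPM in T2, above T1 and T3 (39.0 and 63.0 CPM), near T9 (98.9 CPM) and far under T5 (1604 CPM). Of 11 measured genes of chronically stimulated T cells, Id2 was called higher (1.05) and Tnfrsf9, the costimulatory receptor 4-1BB, lower (-2.67). Their list median was -0.84. With 0.685% of all measured genes called higher and 1.26% lower, 1 call each way says little about this list. Pdcd1, which encodes PD-1, was at 52.8 CPM in T2, between T3 (12.6 CPM) and T5 and T9 (92.9 and 235 CPM), and its ratio was above 0 in 5 of 11 mice. Lag3 was at 46.9 CPM in T2 and 248 CPM in T9, and Tox at 52.8 and 174 CPM. Xcl1, a chemokine for cross-presenting dendritic cells, was at 37.1 CPM in T2, against 21.6, 399, 440 and 2288 CPM in T1, T3, T5 and T9, a median ratio of -3.51. Fcer1g, a signalling adaptor shared with NK cells, was at 41.1 CPM in T2 and 628 CPM in T3, with a ratio of -3.09.

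None of the 12 measured interferon gamma response genes, 6 type I interferon genes, 16 genes of T cell receptor signalling, 8 glycolysis genes or 12 genes of oxidative phosphorylation was called in T2 in either direction. Their list medians were 0.34, 0.22, 0.34, -0.37 and -0.12. Over all 2775 genes measured, 0.685% were called higher and 1.26% lower, so 0 calls in lists of this size is near the share over all genes. With a minimum of 20 cells, which left 4 mice, 3 on SHP099+SX682 and 1 on SHP099, 111 genes met the rule as higher and 76 as lower. A pseudocount of 50 CPM in place of 10 left 12 higher and 24 lower.

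T2 made up a larger part of the T cells in tumours of mice on SHP099+SX682 than on either drug alone. Its share of T cells was 17.8%, 5.79% and 10.3% on SHP099+SX682, 3.94%, 1.86% and 2.97% on SHP099, 2.57%, 4.21% and 1.89% on SX682, and 3.16%, 6.25% and 2.97% on Vehicle. The 95% exact Clopper-Pearson interval of the highest share, in SHP099+SX682 mouse 1, was 15.2 to 20.5% and covers counting error only. All 3 mice on SHP099+SX682 lay above all 6 mice on a single drug, while SHP099+SX682 mouse 2 lay below Vehicle mouse 2. Means were 11.3 ± 6.05%, 2.92 ± 1.04%, 2.89 ± 1.19% and 4.13 ± 1.84% (SD, n = 3 each). Permuting the 12 mice among the treatments exactly (15400 partitions, F = 5.77, smallest possible p 6.49e-05) gave p = 0.0268, or 0.0921 after Benjamini-Hochberg adjustment over the 9 states, so the 4 groups did not differ past the 0.05 threshold in that test. As a share of all cells of the mouse the same exact permutation test gave an adjusted p of 0.0325.

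**Figure D3:**
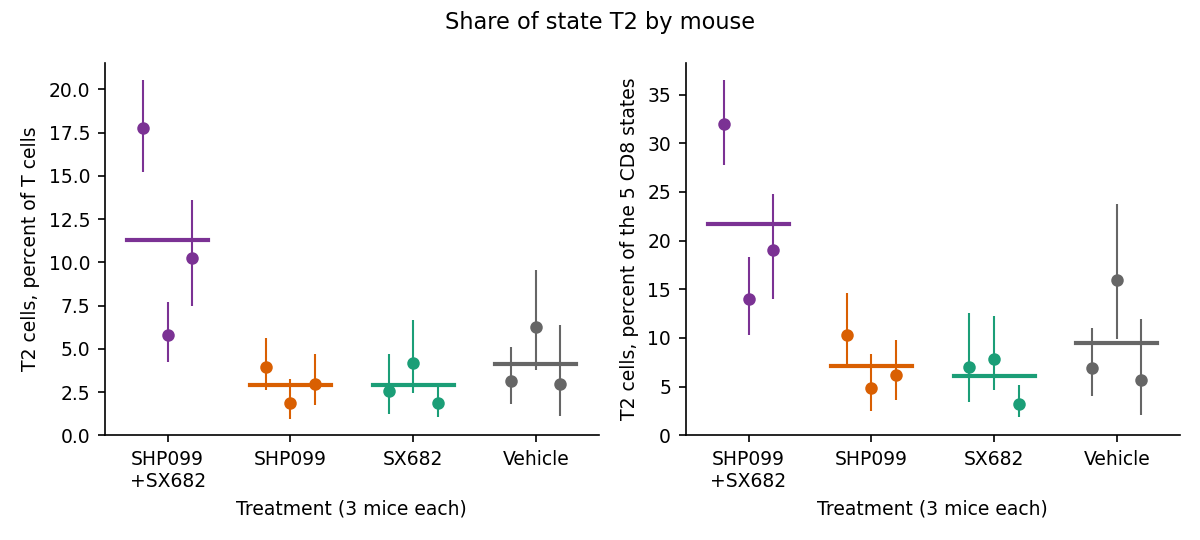
The plot of shares shows, on the vertical axes, T2 as a percent of T cells and as a percent of the 5 CD8 states for each of 12 mice, grouped by treatment from SHP099+SX682 to Vehicle, with exact 95% intervals and a line at the group mean. As a percent of T cells, the 3 mice on SHP099+SX682 run from 5.79 to 17.8% and the 3 on Vehicle from 2.97 to 6.25%.

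Pairs of treatments were compared with edgeR's quasi-likelihood test on cell counts, adjusted over 9 states. The share of T2 was higher on SHP099+SX682 than on SHP099 by a log2 difference of 1.94 ± 0.45 (SE; edgeR adjusted p = 0.00395), and than on SX682 by 2.01 ± 0.47 (edgeR adjusted p = 0.00581). Against Vehicle the difference was 1.45 ± 0.47 (edgeR adjusted p = 0.0335). Neither drug alone was past the threshold against Vehicle, with -0.49 ± 0.50 for SHP099 (edgeR adjusted p = 0.517) and -0.56 ± 0.51 for SX682 (edgeR adjusted p = 0.912). In a test added after the shares were seen, the effect of SHP099 in the presence of SX682 exceeded its effect without it by 2.50 ± 0.68 (edgeR adjusted p = 0.0215). That call was lost without SHP099+SX682 mouse 1 (1.98, edgeR adjusted p = 0.0605), SHP099 mouse 2 (2.26, 0.0540), SHP099 mouse 3 (2.50, 0.0509), SX682 mouse 3 (2.22, 0.0744) or Vehicle mouse 2 (2.08, 0.0890). The call against Vehicle was lost without SHP099+SX682 mouse 1 (0.93, edgeR adjusted p = 0.137), SHP099+SX682 mouse 3 (1.51, 0.0644), Vehicle mouse 1 (1.25, 0.120) or Vehicle mouse 3 (1.31, 0.111), and as a share of CD8 cells (1.21, 0.0896). The call against SX682 was lost without SX682 mouse 3 (1.73, 0.0512), and that against SHP099 held without each mouse in turn.

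The size of the other compartments moved as well. T cells were 15.8 ± 3.12% of all cells on SHP099+SX682, 21.5 ± 3.16% on SHP099, 16.6 ± 11.3% on SX682 and 8.16 ± 0.641% on Vehicle (SD, n = 3 each). As a share of CD8 cells, T2 averaged 21.7 ± 9.31%, 7.13 ± 2.85%, 6.05 ± 2.47% and 9.53 ± 5.61% in these groups (SD, n = 3 each). As a share of all cells it averaged 1.90 ± 1.38%, 0.624 ± 0.203%, 0.412 ± 0.148% and 0.344 ± 0.183% (SD, n = 3 each), and there all 3 mice on SHP099+SX682 lay above all other mice. The cycling CD8 state T5 was also higher on SHP099+SX682 than on Vehicle, by 1.42 ± 0.35 (edgeR adjusted p = 0.00861).

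T cell receptor beta variable genes, which all cells of a clone share, were unevenly used in T2 of the mice with the largest shares. They were picked after their values were seen and are a description. In SHP099+SX682 mouse 1, Trbv13-1 (chromosome 6, 41116007 to 41116468) was found in 43 of 73 T2 cells with any Trbv UMI (58.9%, exact interval 46.8 to 70.3%), against 21 of 161 cells of the other CD8 states (13.04%) and 8 of 164 cells of states 4, 6, 7 and 8 (4.88%) of that mouse. In SHP099+SX682 mouse 3, Trbv16 (chromosome 6, 41151740 to 41152230) was found in 13 of 23 such T2 cells (56.5%, 34.5 to 76.8%), against 7 of 86 (8.14%) and 2 of 71 (2.82%). Each of these 2 genes was thus prominent in T2 of 1 mouse and not of the other, with Trbv16 in 0 of 73 T2 cells of mouse 1 and Trbv13-1 in 2 of 23 of mouse 3. SHP099+SX682 mouse 2, whose T2 share was the lowest of the 3, had Trbv1 as its leading gene, in 6 of 29 cells (20.7%). In the mice on SHP099, SX682 and Vehicle, 3 to 14 T2 cells per mouse had a Trbv UMI, and the leading gene was seen in 1 to 4 of them.

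In T2 cells of SHP099+SX682 mouse 1 the alpha gene Trav8d-2 was seen in 9 cells, of which 6 also had Trbv13-1, 0 another Trbv gene and 3 no Trbv UMI. Trbv genes are close relatives, so reads can be assigned to the wrong one, and 10.2% of T2 cells with a Trbv UMI had more than 1. Without the cells that carried the leading gene, T2 was 13.2% of T cells in SHP099+SX682 mouse 1 and 7.32% in mouse 3. Only cells with a Trbv UMI could be left out in this way, and these were 73 of 146 T2 cells in mouse 1 and 23 of 42 in mouse 3, so cells of the same receptor without such a UMI remain in these shares. The immune receptor sequences that would define clones were not used here.

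**Figure D4:**
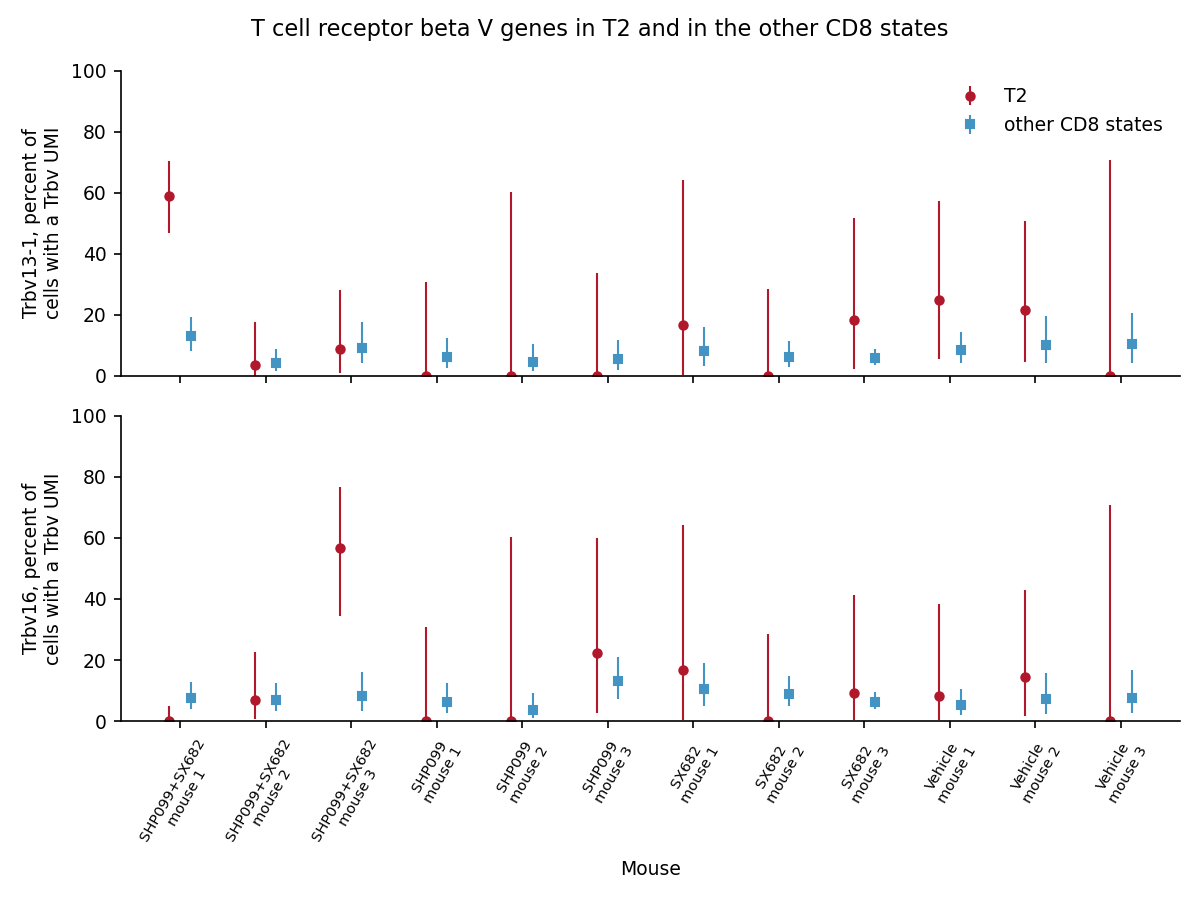
The plot of Trbv use gives the percent of cells with a Trbv UMI that had the named gene (vertical axis), Trbv13-1 above and Trbv16 below, for T2 (circles) and the other CD8 states (squares) of each of 12 mice, with exact 95% intervals. Trbv13-1 stands at 58.9% in T2 of SHP099+SX682 mouse 1 and Trbv16 at 56.5% in T2 of SHP099+SX682 mouse 3.

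Expression within T2 was compared between treatments on UMI counts summed per mouse, with 502 genes tested by edgeR's quasi-likelihood test over 11 mice (3, 3, 3 and 2 mice on SHP099+SX682, SHP099, SX682 and Vehicle). Levels below are CPM on TMM-scaled library sizes. The comparisons with Vehicle share the same 2 Vehicle mice, and those with the combination share its 3 mice.

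SHP099 alone gave the most calls against Vehicle, 11 genes higher (2.19% of those tested) and 12 lower (2.39%). Pfn1, which encodes the actin-binding protein profilin, was at 2967, 2837 and 2950 CPM on SHP099, against 5065 and 5230 CPM on Vehicle, a log2 change of -0.81 ± 0.14 (SE; edgeR adjusted p = 0.0037). Actb, beta actin, was at 6975, 6384 and 6789 CPM on SHP099, against 10853 and 10529 CPM on Vehicle, a change of -0.67 ± 0.12 (edgeR adjusted p = 0.0037). The groups did not overlap in either gene, which was a condition for naming a gene and held for 33.9% of the genes tested. Pfn1 kept its call in all 18 alternatives run. The same 2 cytoskeletal genes had lower values in the other CD8 states (-0.64 and -0.47) and in B cells (-0.73 and -0.54) of these mice, where each passed the test too. Rbm3, a cold-inducible RNA-binding protein, fell by 1.59 on the log2 scale, to 789, 387 and 525 CPM on SHP099, against 2171 and 1494 CPM on Vehicle (edgeR adjusted p = 0.00668). Ly6e, a surface protein induced by interferon, fell by 1.56 and Aldoa, a glycolytic enzyme whose exons overlap Fam57b on the other strand, by 2.75.

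Among the genes higher on SHP099, Ets1, a transcription factor of T cell maturation, was at 915, 709 and 1010.3 CPM on SHP099, against 281 and 272 CPM on Vehicle, a log2 change of 1.69 ± 0.36 (SE; edgeR adjusted p = 0.00893). Ahnak was at 1042, 1161 and 1172 CPM on SHP099, against 442 and 475.5 CPM on Vehicle, a change of 1.28 ± 0.32 (edgeR adjusted p = 0.029). Ahnak is one of the genes that set T2 apart from the other CD8 states, in which its change was 0.18 (edgeR adjusted p = 0.463). It kept its call in 11 of 18 alternatives, and its change in T2 exceeded that in the other CD8 states by 0.78 ± 0.42 (SE; edgeR adjusted p = 0.957). UMIs assigned to Lars2, which encodes a mitochondrial leucyl-tRNA synthetase, rose by 2.52 and those of the long noncoding RNA Gm26917 by 2.21. On chromosome 17, Gm26917 (39843013 to 39846341) lies beside another noncoding RNA, Gm42418 (39846958 to 39848788). Whether UMIs assigned to Lars2, Gm26917 and Gm42418 come from these transcripts was not tested. Atp5e, a subunit of ATP synthase, rose by 1.11 and 1810037I17Rik by 1.36.

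Genes of cytosolic ribosomal proteins moved both ways on SHP099, with 5 of 79 tested called higher and 5 lower against Vehicle. Of all 502 genes tested, 2.19% were called higher and 2.39% lower in this comparison. Rpl38, Rpl37a, Rps27 and Rps21 rose by 1.03, 0.86, 0.77 and 0.73, and Rpl29, Rpl8 and Rplp0 fell by 0.80, 0.64 and 0.60. The median change of the 79 genes was -0.05, against 0.06 over all genes tested. Changes of these 7 genes in B cells of the same mice ran the same way and each passed the test there, for example 1.01 for Rpl38 and -0.95 for Rpl29.

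**Figure D5:**
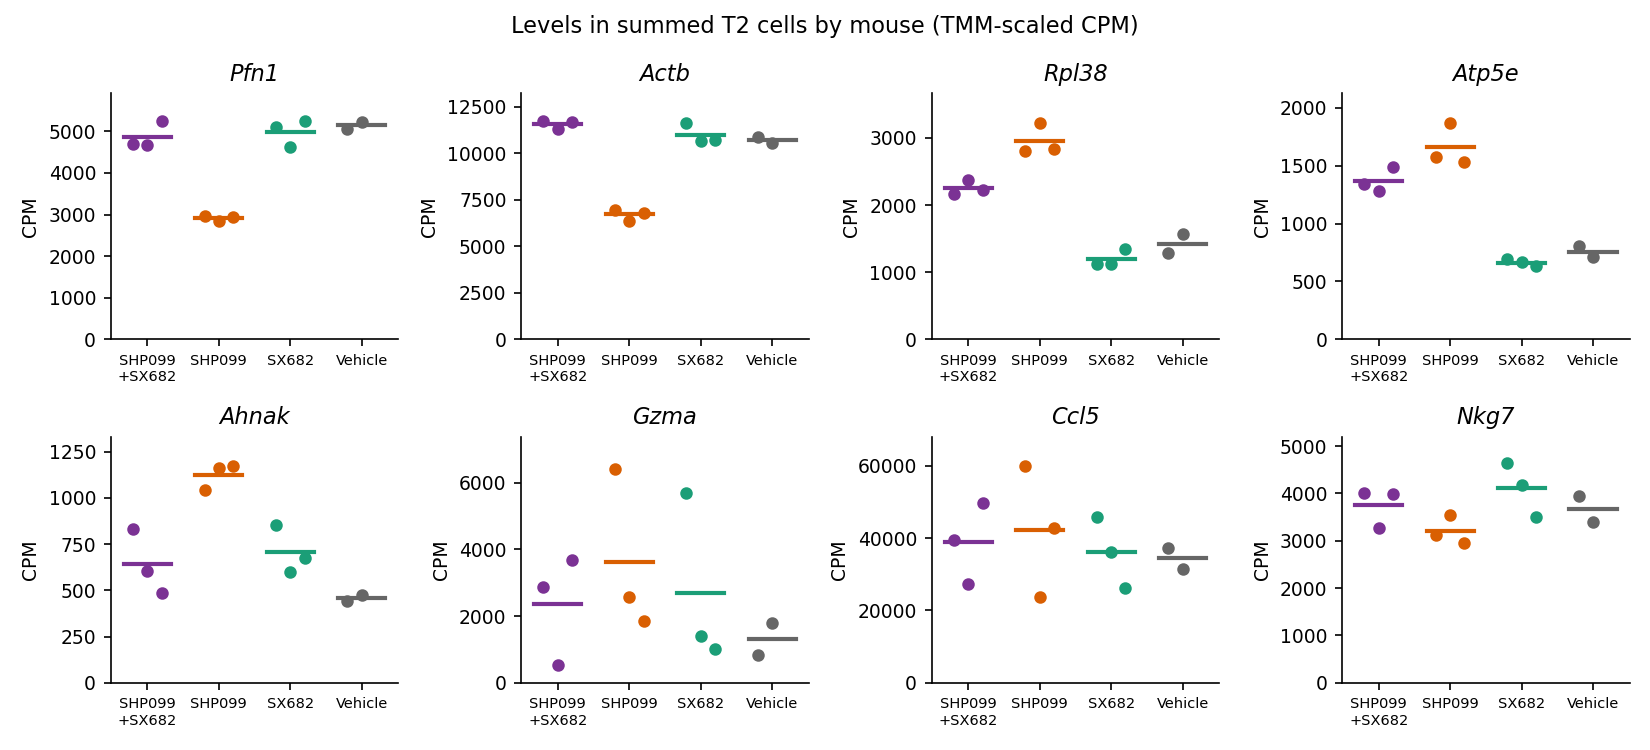
The plot of genes within T2 shows CPM per mouse (vertical axis, TMM-scaled) for 8 genes by treatment, SHP099+SX682 to Vehicle, with a line at the mean and 2 Vehicle mice. Pfn1 and Actb lie lower in the 3 SHP099 mice than in the 8 others, and Ccl5 overlaps between all treatments.

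Against Vehicle, SHP099+SX682 gave 0 genes higher (0%) and 1 lower (0.199%), with 65 genes at an unadjusted p below 0.05 and 3 calls by DESeq2. The gene was Rplp0, a ribosomal stalk protein, at 3167, 3042 and 2982 CPM on SHP099+SX682, against 4582 and 5095 CPM on Vehicle, a log2 change of -0.66 ± 0.13 (SE; edgeR adjusted p = 0.0349). It kept its call in 10 of 18 alternatives and was lower in the other CD8 states too (-0.62). SX682 alone gave 0 calls in either direction (0%) by edgeR and 0 by DESeq2, with 45 genes at an unadjusted edgeR p below 0.05. These tests cover genes abundant enough to count in sums of 15961 UMIs or more, the lowest among the mice tested.

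Set against SHP099, SHP099+SX682 gave 2 genes higher (0.398%) and 4 lower (0.797%). Actb was at 11742, 11279.5 and 11702 CPM on SHP099+SX682, above its 3 values on SHP099, a log2 difference of 0.78 ± 0.10 (SE; edgeR adjusted p = 0.000186), and kept its call in all 19 alternatives run. Between these groups 18.3% of the genes tested did not overlap. Pfn1 was higher by 0.73 ± 0.12 (edgeR adjusted p = 0.00212), with 4691, 4661 and 5253 CPM on SHP099+SX682. Lars2 fell by 1.42, Rps21 by 0.60, Rpl37a by 0.54 and Gm42418, a noncoding RNA whose exon overlaps other annotated transcripts on the opposite strand, by 1.07; these 4 kept their calls in 10 or 11 of 19 alternatives. Set against SX682, the combination gave 13 genes higher (2.59%) and 3 lower (0.598%). Of the 13 higher, 10 encode cytosolic ribosomal proteins, among them Rps29 (1.60), Rpl31 (1.30), Rpl35 (1.02), Rpl37 (0.96), Rpl39 (0.91) and Rpl36 (0.91). That list makes up 79 of the 502 genes tested and also held 1 of the 3 lower calls, Rpl8 (-0.54). Its median difference was -0.00, against 0.01 over all genes tested. Atp5mpl (1.44) and Atp5e (1.04), both of ATP synthase, rose too. Cd7, a surface receptor of T cells, was at 73.3, 320 and 225 CPM on SHP099+SX682, against 1758, 398 and 549 CPM on SX682, a difference of -2.31 ± 0.58 (SE; edgeR adjusted p = 0.0289). Cd3g, a chain of the T cell receptor complex, was at 649, 818 and 624 CPM on SHP099+SX682, against 1119, 1328 and 1309.8 CPM on SX682, a difference of -0.87 ± 0.20 (edgeR adjusted p = 0.0174).

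Of 14 cytotoxic genes 8 passed the filter on low counts, and 0 were called by edgeR in any of the 5 comparisons. Over all 502 genes tested, 0 to 2.59% were called higher and 0 to 2.39% lower per comparison. A count of 0 among 8 genes is thus near the overall share. Of 14 terminal effector genes 7 passed, and Ahnak on SHP099 was the single call. Gzma was at 2879, 534 and 3675 CPM on SHP099+SX682, 6407, 2579 and 1859 CPM on SHP099, 5700.3, 1395 and 1014 CPM on SX682 and 844 and 1800.1 CPM on Vehicle, with overlap between all groups except SHP099 and Vehicle. Between SHP099 and Vehicle, 33.9% of the genes tested did not overlap. Gzmb was at 508, 160 and 520.1 CPM on SHP099+SX682, 568, 516 and 566 CPM on SHP099, 639, 432 and 42.3 CPM on SX682 and 322 and 306 CPM on Vehicle. Nkg7 lay between 2950.1 and 4635 CPM in all 11 mice. The median log2 change of the 8 cytotoxic genes was 0.12 for SHP099+SX682 against Vehicle, 0.05 for SHP099 and 0.18 for SX682, beside 0.03, 0.06 and -0.02 over all genes tested. Klrg1 and Cx3cr1 were too sparse to pass the filter.

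The number of calls rested on single mice. For SHP099 against Vehicle the 23 calls became 3 without Vehicle mouse 1, 8 without Vehicle mouse 2 and 12 without SHP099 mouse 2. For SHP099+SX682 against SHP099 the 6 calls became 2 without SHP099+SX682 mouse 1, SHP099+SX682 mouse 3 or SHP099 mouse 2, 3 without SX682 mouse 2 and 11 without SHP099+SX682 mouse 2.

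Whether a treatment changed T2 otherwise than the other CD8 states was tested with both sums of each mouse in 1 edgeR model over 5268 genes. SHP099+SX682 against Vehicle gave 1 gene with a higher change in T2 (0.019%) and 2 with a lower one (0.038%), SHP099 gave 1 (0.019%) and 1 (0.019%), and SX682 gave 1 (0.019%) and 2 (0.038%). DESeq2 called 0 in each, and at an unadjusted edgeR p below 0.05 there were 269, 231 and 203 genes. In simulated counts for SHP099+SX682 against Vehicle, the edgeR test found 0% of 2-fold and 2.17% of 4-fold differences. Their spread was set larger than the biological coefficient of variation of 14.0% fitted within T2, so these shares need not hold for these mice. Few calls still do not show that few genes differed. For SHP099, the Gzma change in T2 minus that in the other CD8 states was 2.30 ± 0.32 on the log2 scale (SE; edgeR adjusted p = 3.77e-09). On unscaled totals Gzma in T2 was at 6135, 2506 and 1839.6 CPM on SHP099, against 864 and 1793 CPM on Vehicle, and in the other CD8 states at 267, 244 and 82.0 CPM on SHP099, against 130 and 780 CPM on Vehicle. The T2 values of Vehicle mouse 2 and SHP099 mouse 3 lay close together, and the call was lost without Vehicle mouse 2 (1.54, edgeR adjusted p = 0.99) and with T5 left out of the other states (1.38, 0.124). Neither part passed its own test: the Gzma change on SHP099 was 1.48 ± 0.73 within T2 (edgeR adjusted p = 0.255) and -1.08 in the other CD8 states (edgeR adjusted p = 0.317). The NK markers summed to 90.7 to 689 CPM in T2 of SHP099 mice and 0 to 169 CPM in Vehicle mice, mouse 3 among them. The part of NK cells in the Gzma result was not tested.

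Ly6c2, a surface protein of effector and memory CD8 cells, had a higher change in T2 on SHP099+SX682, by 1.38 ± 0.31 (SE; edgeR adjusted p = 0.0243). It was at 2497, 857 and 1029 CPM in T2 on SHP099+SX682, against 1235 and 575 CPM on Vehicle, and at 1002, 688 and 1043 CPM in the other CD8 states on SHP099+SX682, against 1075 and 1281 CPM on Vehicle. The difference was 0.74 without SHP099+SX682 mouse 1 (edgeR adjusted p = 1), 0.98 without Vehicle mouse 2 (0.943) and 1.15 with T5 left out of the other states (0.351). The other genes of this test were Igkc and Cd74, which B cells and antigen-presenting cells express, the noncoding RNA Gm42418 and the receptor gene Trbv12-2. Cd74 in T2 was at 270.4, 571 and 412 CPM on SHP099+SX682, 60.4, 0 and 0 CPM on SHP099, 381, 0 and 44.0 CPM on SX682 and 165 and 1150.4 CPM on Vehicle, so 34 of the 38 Vehicle UMIs came from mouse 2. Over the group, SHP099 had 2 Cd74 UMIs among 74056 and Vehicle 38 among 53851, a ratio of 26.1-fold lower (95% counting interval 6.75 to 224). The 7 B cell markers, which do not include Cd74, summed to 0 to 80.0 CPM in T2 of SHP099 mice and 0 to 508 CPM in Vehicle mice. The 8 dendritic cell markers include Cd74 itself, so their sum is no separate measure. Of these, H2-Aa was at 0 CPM in T2 of all SHP099 mice and 0 to 338 CPM in Vehicle mice. H2-Ab1 was at 0 CPM and 0 to 135 CPM. These Vehicle ranges take in mouse 3, which was not in the test. The part of other cells in the result was not tested. In the test within T2, Trbv13-1 was called lower on SHP099 than on Vehicle (edgeR adjusted p = 0.0349), with 0 UMIs on SHP099 and 24 on Vehicle. A floor of 3 counts over the group gives 11.0-fold lower, which is no bound, as UMIs of 1 cell are not independent. In the 2 Vehicle mice tested it was seen in 3 of 12 and 3 of 14 T2 cells with any Trbv UMI. On SHP099 it was in 0 of 10, 0 of 4 and 0 of 9 such cells.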

How the data were processed

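Per the labels' protocols, mice of a treatment were hashtagged and pooled for 10x capture; per the submitters' processing notes, tools included bcl2fastq, Cell Ranger and mm10, with no versions stated for these. The authors deposited raw UMI counts for 32285 genes and the cluster and mouse of each cell; no deposited cell is below 500 UMIs or above 20% mitochondrial UMIs, and the handling of doublets is not stated. Gene names with a dot in place of a hyphen (2673) were respelled. Bulk libraries of sorted Epcam+ cells were not used, and 0 columns belonged to other samples.

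Some genes are not reported here. Counts were summed per mouse over T2 cells (at least 10) and tested with edgeR 4.0.16 (TMM, filterByExpr, quasi-likelihood F test, R 4.3.3), all treatments in 1 fit, adjusted by Benjamini-Hochberg over all genes; calls had an adjusted p below 0.05. DESeq2 1.42.0 and limma 3.58.1 gave alternatives. T2 against other CD8 states is a median log2 ratio of CPM + 10 with no test. Permutation, thinning to 500 UMIs and exact intervals used Python 3.11.15 with scipy 1.17.1. Scripts were tested on simulated counts whose spread was set and not estimated from the mice. It was larger than the biological coefficient of variation of 14.0% fitted within T2. There the tests within T2 found 21.3 to 42.1% of 2-fold changes and 73.7 to 93.8% of 4-fold changes.

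Named genes were the up to 10 largest called changes each way with groups that did not overlap and an average of at least 5 log2 CPM (15 for T2 against the other states, same direction in every mouse), up to 6 genes of each list, and Klrg1, Cx3cr1, Cd8a, Ptpn11, Cxcr1 and Cxcr2; the Trbv and Trav genes were chosen after their values were seen. Members and gene lists were chosen with earlier results of these data known. Gene positions are from GENCODE on GRCm38 and promoters from RefSeq. Alternatives covered size factors, DESeq2, no filter, other cell minima, equal cell numbers, a replicate block, fits of 2 treatments alone, other share denominators and each mouse left out. Intervals and floors cover counting error only.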

Additional observations from a re-analysis of the deposited data

Results flagged for a closer look

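The T2 share of T cells was flagged because the effect of SHP099 differed between mice with and without SX682, by 2.50 on the log2 scale (edgeR adjusted p = 0.0215); the call was lost when SHP099+SX682 mouse 1, SHP099 mouse 2, SHP099 mouse 3, SX682 mouse 3 or Vehicle mouse 2 was left out.

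Differences between the change in T2 and that in the other CD8 states flagged a few genes, each by the edgeR test of the difference itself. For SHP099 against Vehicle these were Gzma (2.30) and Cd74 (-4.55, edgeR adjusted p = 8.27e-06). With each other state weighted equally, the Gzma ratios by mouse overlapped between SHP099 and Vehicle. Without Vehicle mouse 2 the Cd74 difference was -2.08 (edgeR adjusted p = 0.990). For SHP099+SX682 against Vehicle they were Ly6c2 (1.38), Igkc (-3.75, edgeR adjusted p = 0.000829) and Cd74 (-1.72, edgeR adjusted p = 0.0474). The Igkc call was lost without SHP099+SX682 mouse 2 (-2.78, edgeR adjusted p = 0.236), Vehicle mouse 1 (-3.64, 0.145) or Vehicle mouse 2 (-3.49, 0.943), and the Cd74 call was kept in 6 of 15 alternatives. Igkc in T2 was at 143, 179 and 120.1 CPM on SHP099+SX682, against 206 and 237 CPM on Vehicle, and in the other CD8 states at 207, 1217 and 114 CPM on SHP099+SX682, against 28.7 and 34.7 CPM on Vehicle. For SX682 against Vehicle they were Cd74 (-2.69, edgeR adjusted p = 0.0185), Gm42418 (-1.09, edgeR adjusted p = 0.0185) and Trbv12-2 (9.91, edgeR adjusted p = 0.0206). Gm42418 in T2 was at 7508, 6877 and 5014 CPM on SX682, against 16464 and 5752 CPM on Vehicle, so a single Vehicle mouse stood apart, and without it the difference was -0.47 (edgeR adjusted p = 0.981). The Cd74 difference for SX682 was -0.36 without Vehicle mouse 2 (edgeR adjusted p = 1), -1.74 without SX682 mouse 2 (0.809) and -2.31 without SX682 mouse 3 (0.213). The Trbv12-2 value is fitted against 0 UMIs in T2 of both Vehicle mice tested and is no measure of size. A floor of 3 counts over the group gives 3.27-fold higher on SX682, which is no bound, as UMIs of 1 cell are not independent. In SX682 mouse 2, 9 UMIs came from 2 T2 cells. Vehicle mouse 3, which was not in the test, had 2 UMIs in T2 (213 CPM). DESeq2 called none of these 8 differences.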

How the results depend on the processing

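Among the genes named, 724 alternative values kept their direction and side of the threshold, 190 lost the call, 5 gained it and 6 reversed. The reversed ones were Nkg7 for SHP099+SX682 against Vehicle, which was near 0 (-0.00185 with the 2 treatments fitted alone, -0.00429 without SHP099+SX682 mouse 1, -0.0890 without Vehicle mouse 2, up to 0.19 without Vehicle mouse 1, -0.0327 with all 12 mice), Ccl5 (-0.0230 without SHP099+SX682 mouse 3, up to 0.38 without mouse 2) and the Cd74 difference between T2 and the other CD8 states (0.76 without Vehicle mouse 2, -2.78 without Vehicle mouse 1); the cause was not tested. The test over 4 treatments passed with all cells as the denominator (adjusted p = 0.0325, exact permutation). The share on SHP099+SX682 against Vehicle lost its call among CD8 cells (1.21) and with the replicate block (1.41, edgeR adjusted p = 0.0900), as did the difference of SHP099 effects with the block (2.44, edgeR adjusted p = 0.0684). Counts of called genes for SHP099+SX682 against Vehicle were 3 by DESeq2, 19 with no filter, 4 with the replicate block, 4 with the treatments alone, 2 with equal cell numbers and 14 with all 12 mice, an alternative chosen after seeing the data. For SHP099 against Vehicle they were 13 with no filter, 15 alone, 10 with equal cells and 39 with all 12 mice. SX682 against Vehicle gave 2 with no filter, 3 with the block and 4 with all 12 mice. SHP099+SX682 against SHP099 gave 3 by DESeq2, 40 with no filter and 1 with equal cells, and against SX682 50 with no filter and 6 with equal cells. Genes whose change differed between T2 and the other CD8 states numbered 0 by DESeq2 and 1 without T5 for SHP099+SX682, 0 and 1 for SHP099, and 0 by DESeq2, 1 with no filter and 0 without T5 for SX682. Genes setting T2 apart numbered 187 at a minimum of 20 cells, and 12 higher and 24 lower with a pseudocount of 50 CPM, 22 and 37 with 1 CPM, and 20 and 31 with the other states summed, against 19 and 35. Leaving out each mouse in turn, the adjusted p over 4 treatments ran from 0.115 to 0.236. Log2 differences in share ran from 0.93 to 1.87 for SHP099+SX682 against Vehicle, -0.77 to -0.07 for SHP099, -0.92 to -0.14 for SX682, 1.42 to 2.26 and 1.49 to 2.37 for SHP099+SX682 against SHP099 and SX682, and 1.98 to 2.86 for the difference of effects. Gene counts ran from 0 to 4, 3 to 25, 0 to 2, 2 to 11 and 12 to 23 in the same order, and 0 to 3 for each difference between T2 and the other states. Same-numbered mice of different treatments had correlations of -0.154 to 0.184 and others -0.155 to 0.152, so the numbers do not pair mice; the block gave 30, 6 and 20 calls for SHP099 against Vehicle and for SHP099+SX682 against SHP099 and SX682. A minimum of 20 cells could be fitted only for SHP099+SX682 against SHP099, with 9 calls and the lone SHP099 mouse assumed to vary like the others. The few T2 cells limit depth: 502 genes could be tested.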
